A study of Mus musculus with 7 samples.

Results

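Nucleosomes are built from the core histones H2A, H2B, H3 and H4. Most of the genes that encode them, the replication-dependent histone genes, are short, have no introns and lie in clusters, and their mRNAs usually end in a conserved stem-loop rather than a poly(A) tail. They are transcribed mainly in S phase, when new chromatin needs histones, and preleptotene spermatocytes are the germ cells that go through premeiotic S phase. Core histone cluster genes were chosen here by symbol in the GENCODE vM21 annotation, as every gene named Hist1, Hist2, Hist3 or Hist4 followed by an h2a, h2b, h3 or h4 label. This gave 61 of 21928 genes with a matched transcript, of which 18 encode H2A, 18 encode H2B, 12 encode H3 and 13 encode H4. Linker histones were left out, and 3 further symbols of the annotation that fit the rule were not analysed here.

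RNA was sequenced from whole testes of C57BL/6N mouse pups, 4 wild-type and 3 Meioc-null (allele Meioc tm1.1Dpc), the latter lacking MEIOC, a germ cell protein that promotes entry into meiosis. In both genotypes spermatogenesis had been synchronized, with WIN 18,446 (which blocks retinoic acid synthesis) at 0.1 mg per gram of body weight each day from postnatal day 2 to 8, then retinoic acid at 0.0125 mg per gram on day 9, and testes were taken 6.75 days later to enrich for preleptotene spermatocytes. Each library came from 1.5 testes of a single pup and so holds somatic cells as well as germ cells. In such bulk samples, fewer cells of a type and less RNA per cell cannot be told apart. The kit removed ribosomal RNA from total RNA and did not select poly(A), so histone mRNAs without a tail could be read. Libraries held 12537852 to 20552702 estimated counts, and Meioc itself was at 466 to 718 CPM (estimated counts scaled to library size) in wild-type and 299 to 412 CPM in null libraries. It was lower in every null library but not absent, and gene sums do not resolve the deleted part.

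The genes lie at 4 loci of mm10. Hist1 holds 48 of them, at chr13:21715763-23934851, and Hist2 holds 10, at chr3:96219865-96270132. The pair Hist3h2a and Hist3h2ba lies at chr11:58948920-58956830, and Hist4h4 alone at chr6:136801553-136804415. Annotated transcripts were short, with a median length over genes of 508 bases, and 56 of the 61 genes had single-exon transcripts only. Of the 66 transcripts, 42 matched the histone 3-prime stem-loop in the forms given here, as read on the sense strand, against 48 (0.112%) of the other transcripts listed. Examples of the forms in each class are given as 30-base stretches with the stem-loop in capitals, since they show how H4 differs from the other classes.
Hist3h2a: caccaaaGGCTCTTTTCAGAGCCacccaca
Hist1h2bm: acacaaaGGCTCTTTTCAGAGCCactaagc
Hist1h2bb: acccaaaGGCTCTTTTAAGAGCCacccaca
Hist2h3c2: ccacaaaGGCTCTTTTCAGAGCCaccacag
Hist1h3c: aaaaaaaGGCTCTTTTAAGAGCCacctaag
Hist1h4c: aacaaaaGGCCCTTTTCAGGGCCacccaca
Hist1h4j: ccctaaaGGTCCTTTTCAGGACCaccacat
Hist1h4i: acttaaaGGCCCTTTTTAGGGCCaccacaa
The form GGCTCTTTTCAGAGCC stood in 10 H2A, 8 H2B and 5 H3 genes, and the form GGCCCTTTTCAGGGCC in 7 H4 genes. For the other 24 transcripts this says only that the letters were not in the annotated sequence.

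Promoter windows of RefSeq (GRCm38.p6, 250 bases before to 50 after the start of transcription) were found for 56 of the 61 genes. The CCAAT letters, on either strand, were in all 18 H2A, 16 H2B and 10 H3 windows but in 3 of 12 H4 windows (25.0%), against 41.1% of all 27025 genes. The octamer ATTTGCAT, on either strand, was in 7 of 18 H2A windows (38.9%) and 7 of 16 H2B windows (43.8%), in none of the H3 or H4 windows, and in 2.0% of all genes. The TATAAA letters, on either strand, were in 55.4% of the windows and in 15.7% of all genes. Hist1h2aa and Hist1h2ba, the testis H2A and H2B genes also called TH2A and TH2B, are transcribed away from each other, with start sites 281 bases apart and windows that overlap by 220 bases. The Hist1h2aa window is given for this shared stretch, and the windows of 2 H3 genes because those genes differed in opposite directions between genotypes; capitals mark the 3 motifs and their reverse complements.
Hist1h2aa, chr13:23934187-23934486, plus strand: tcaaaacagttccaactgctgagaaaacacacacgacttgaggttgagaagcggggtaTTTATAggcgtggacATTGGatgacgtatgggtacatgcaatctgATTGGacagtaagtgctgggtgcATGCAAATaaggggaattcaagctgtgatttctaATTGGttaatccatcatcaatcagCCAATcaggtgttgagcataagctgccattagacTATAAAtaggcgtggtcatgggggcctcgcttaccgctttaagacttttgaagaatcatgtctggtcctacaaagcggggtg
Hist2h3c2, chr3:96239078-96239377, minus strand: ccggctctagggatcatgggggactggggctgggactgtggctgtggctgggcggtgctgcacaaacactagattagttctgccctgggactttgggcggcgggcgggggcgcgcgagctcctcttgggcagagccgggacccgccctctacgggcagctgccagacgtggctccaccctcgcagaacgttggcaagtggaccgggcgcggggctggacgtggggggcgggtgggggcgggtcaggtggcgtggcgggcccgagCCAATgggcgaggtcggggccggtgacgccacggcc
Hist1h3g, chr13:23535168-23535467, plus strand: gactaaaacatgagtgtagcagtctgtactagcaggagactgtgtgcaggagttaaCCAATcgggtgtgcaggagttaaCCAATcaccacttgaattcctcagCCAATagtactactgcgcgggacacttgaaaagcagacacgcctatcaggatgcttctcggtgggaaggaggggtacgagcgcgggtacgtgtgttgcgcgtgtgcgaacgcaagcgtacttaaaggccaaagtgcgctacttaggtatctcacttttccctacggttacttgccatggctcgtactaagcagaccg

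Summed over all members in CPM, with library sizes scaled by TMM, core histone RNA was higher in every wild-type library than in every Meioc-null library. The totals of all 61 genes were 6238, 12990, 15030 and 13270 CPM in wild-type replicates 1 to 4 and 5730, 3289 and 4109 CPM in Meioc-null replicates 1 to 3. Wild-type replicate 1 lay close to Meioc-null replicate 1 and far below the other wild-type libraries. The difference of the mean log2 totals was 1.40 ± 0.37 (SE, n = 4 and 3), a 2.64-fold difference. Without wild-type replicate 1 it was 1.69. Totals over all members, classes and clusters are given as a description, with no test.

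Among class sums, H2B differed most and H3 least. H2A summed to 2885, 5817, 6621 and 6042 CPM in wild-type against 2516, 1465 and 2037 CPM in null libraries, a log2 difference of 1.38 ± 0.36 (SE, n = 4 and 3). H2B summed to 1745, 3882, 4635 and 4195 CPM against 1515, 809 and 950 CPM, a log2 difference of 1.69 ± 0.42 (SE, n = 4 and 3). Of this sum, Hist1h2ba, Hist1h2bq and Hist1h2br held 539, 1571, 1480 and 1223 CPM against 279, 142 and 206 CPM. These genes, which share sequence, differed by 2.47 ± 0.46 (SE, n = 4 and 3), and H2B was not summed without them. The rank of H2B among the classes and its lack of overlap therefore hold only for the sum with these genes included. H4 summed to 1145, 2430, 2832 and 2296 CPM against 1049, 601 and 665 CPM, a log2 difference of 1.46 ± 0.38 (SE, n = 4 and 3). In these 3 classes the groups did not overlap, although wild-type replicate 1 stood only slightly above Meioc-null replicate 1 in each. H3 summed to 464, 864, 939 and 736 CPM against 651, 414 and 457 CPM, so that the groups overlapped, and its log2 difference of 0.54 ± 0.30 (SE, n = 4 and 3) became -0.077 on summed TPM, the abundance that kallisto normalises to transcript length. Within a library, the ratio of H3 to H2A was 0.122 to 0.161 in wild-type and 0.225 to 0.283 in Meioc-null testes, with no overlap, whereas the ratio of H4 to H2A overlapped, at 0.380 to 0.428 and 0.326 to 0.417. The ratio of H2B to H2A was 0.605 to 0.700 in wild-type and 0.466 to 0.602 in Meioc-null testes.

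**Figure D1:**
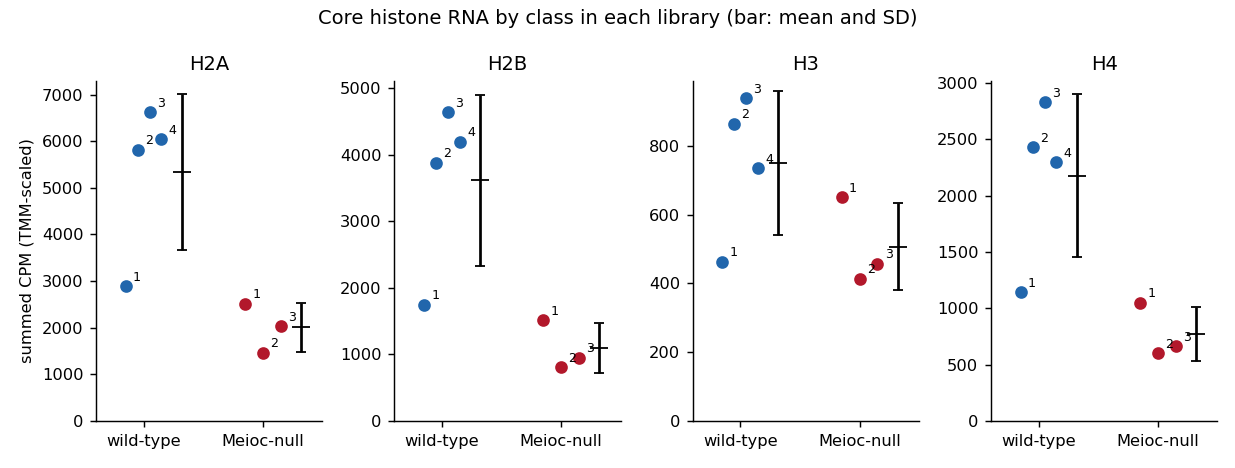
Summed CPM (y axis, from 0, scaled by TMM) of the H2A, H2B, H3 and H4 genes in each wild-type (blue) and Meioc-null (red) library, numbered by replicate, with the group mean and SD as a bar. In H2A, H2B and H4 every wild-type library lies above every Meioc-null library, with wild-type replicate 1 lowest of its group, and in H3 the groups overlap.

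All 4 clusters were higher in wild-type testes. Hist1 summed to 5016 to 11230 CPM in wild-type against 2600 to 4668 CPM in null libraries, with a log2 difference of 1.35 ± 0.36 (SE, n = 4 and 3). By CPM, Hist2 differed most, at 497, 2045, 2082 and 1338 CPM against 412, 288 and 357 CPM, a log2 difference of 1.90 ± 0.51 (SE, n = 4 and 3). Hist3 and Hist4h4 differed by 1.34 ± 0.35 and 1.20 ± 0.30 (SE, n = 4 and 3). On summed TPM the log2 difference of Hist2 was 1.25, no larger than the 1.27 of Hist1. In counts per kilobase of annotated length it was 1.67 for Hist2 and 1.29 for Hist1. In none of the 4 clusters did the groups overlap.

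Gene by gene, 59 of the 61 members passed a filter of at least 1 TPM in at least 3 libraries. By the quasi-likelihood test of edgeR, Benjamini-Hochberg adjusted over all 13630 genes tested, 30 of the 59 were higher in wild-type testes (50.8%) and 3 were lower (5.1%), while over all genes tested 7.77% were higher and 3.33% lower, 11.1% in all. Fitted to log2(TPM + 1) with limma, where the median of all genes itself shifted by -0.23, 27 members were higher and 8 lower, while 3.23% of all genes were higher and 15.3% lower. The median log2 fold change of the 59 was 1.15, and that of all genes tested was -0.0065. Every wild-type library lay above every Meioc-null library for 21 members, where 15.4% of all genes tested did so, and below for 5, where 10.8% did so. These calls depended on single libraries. With wild-type replicate 2, 3 or 4 left out, edgeR called 9, 8 and 17 members higher, and with Meioc-null replicate 2 or 3 left out it called 4 and 0. Calls among all genes fell as well, from 1513 to 296, 275, 542, 353 and 131. With wild-type replicate 1 left out the number of members called higher was 37, and with Meioc-null replicate 1 left out it was 31. Of all genes tested, 10.6% and 9.35% were called higher in these fits. Each called member but Hist1h3g lost its call in 1 to 6 of the 7 fits. Without Meioc-null replicate 3, 37 members were higher by edgeR at an unadjusted p under 0.05. When members that share sequence were summed, 14.4% of all 13590 features were higher at this level without that library. The members' median log2 fold change lay between 0.99 and 1.38 in these 7 fits.

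**Figure D2:**
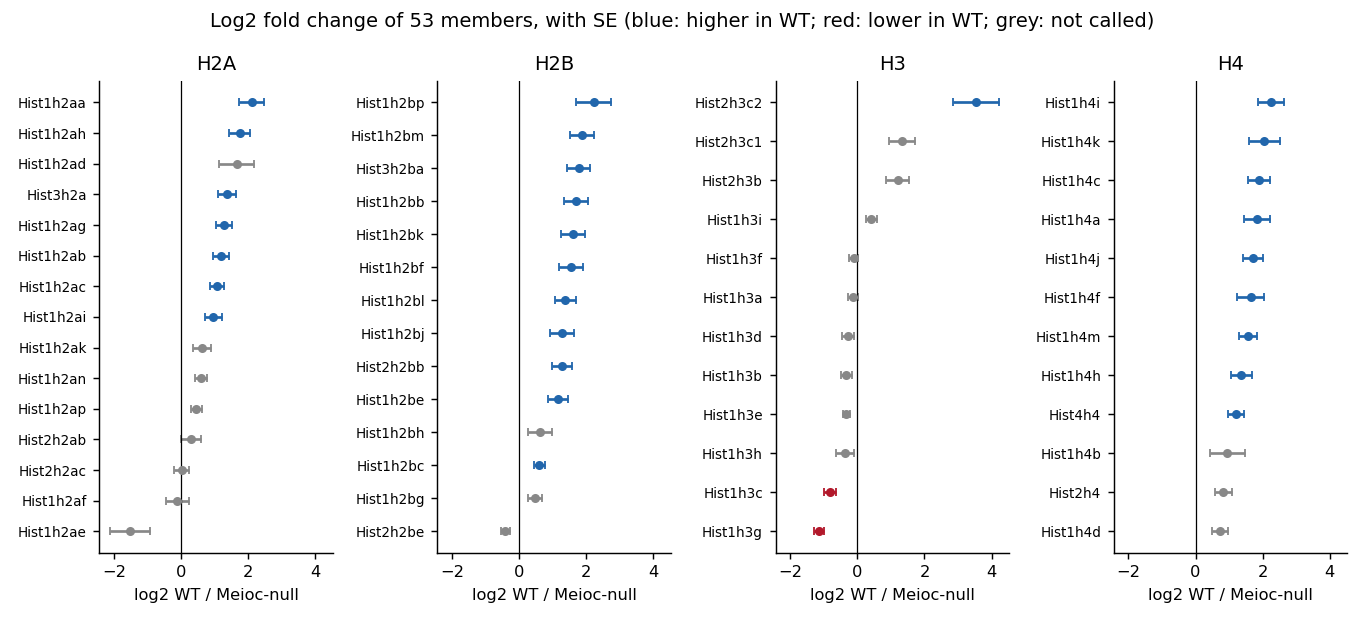
Log2 fold change, wild-type over Meioc-null (x axis), with its SE, of 53 tested members by class, blue where called higher in wild-type, red where called lower and grey where not called by edgeR. Left out are 6 tested members, the Hist2h2aa1 and Hist2h2aa2 pair, Hist1h2ba, Hist1h2bq and Hist1h2br, whose values switched between libraries of 1 group, and Hist1h4n, with no counts in wild-type. H3 is the class with most members left of 0.

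H2A had 8 of 17 tested members higher and none lower (median log2 fold change 0.96). Hist1h2aa, which encodes the testis-specific TH2A, had the highest TPM of the class, at 11638, 26016, 28009 and 29516 TPM in wild-type and 9155, 4919 and 6963 TPM in Meioc-null libraries. In CPM it was at 522, 1384, 1420 and 1427 against 381, 174 and 279, and its log2 fold change was 2.09 ± 0.37 (adjusted p = 0.0144 by edgeR; 0.0643 without Meioc-null replicate 3). Of its 31-base words, 88.3% were in no other gene, but 15 of the 30 words in its last 60 bases were in other members. For its annotated transcript of 390 bases kallisto used an effective length of only 69.0 to 78.4 bases, which raises its TPM relative to its counts.

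Hist1h2ai, next in TPM, was at 259, 523, 475 and 351 CPM in wild-type against 259, 141 and 222 CPM in null libraries, with a log2 fold change of 0.96 ± 0.26 (adjusted p = 0.0443 by edgeR). Its lowest wild-type value was barely above its highest null value. Hist3h2a, an H2A gene at a locus of its own with Hist3h2ba, was at 587, 1153, 1408 and 1192 CPM against 531, 327 and 415 CPM, a log2 fold change of 1.36 ± 0.27 (adjusted p = 0.0181 by edgeR). The other H2A genes called were Hist1h2ab, Hist1h2ac, Hist1h2ag and Hist1h2ah, with log2 fold changes from 1.08 to 1.74, and Hist2h2aa1. Hist2h2ac and Hist2h2ab, at no more than 6.56 CPM in any library, had log2 fold changes of 0.01 ± 0.22 and 0.29 ± 0.29 and were not called. Hist1h2ad (1.65 ± 0.52) and Hist1h2ae (-1.53 ± 0.60) were not called either, and together they were at 384 to 1474 CPM in wild-type against 289 to 527 CPM in null libraries. Hist1h2af, Hist1h2ak, Hist1h2an and Hist1h2ap had log2 fold changes from -0.12 to 0.63 without a call, and Hist1h2ao, read only in wild-type replicate 3 at 9.81 CPM, was not tested.

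Hist2h2aa1 and Hist2h2aa2 show why single members have to be read with care. All 31-base words of the shorter transcript are in the other, and the division of their reads by kallisto differed from library to library. Hist2h2aa1 was at 92.0, 1510, 1455 and 148 CPM in wild-type libraries and at 0 in all 3 Meioc-null libraries. Hist2h2aa2 was at 262, 0, 0 and 718 CPM against 259, 192 and 257 CPM. The sum of the pair was 354, 1510, 1455 and 865 CPM in wild-type against 259, 192 and 257 CPM in Meioc-null testes, without overlap, and its log2 fold change was 2.15 ± 0.42 (adjusted p = 0.0166 by edgeR on the table with near-identical members summed). The zeros of Hist2h2aa1 thus do not show absence of its RNA, and no fold change is given for it.

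H2B had 12 of 17 tested members higher and none lower (median log2 fold change 1.28). Hist1h2bb, among the 3 H2B genes with the highest TPM, was at 365, 794, 1060 and 1015 CPM in wild-type against 367, 178 and 210 CPM in null libraries, with a log2 fold change of 1.69 ± 0.36 (adjusted p = 0.0227 by edgeR). Hist3h2ba, of whose words 92.0% were its own, was at 43.0, 93.5, 125 and 112 CPM against 37.4, 19.9 and 24.8 CPM, a log2 fold change of 1.77 ± 0.34 (adjusted p = 0.0175 by edgeR). Hist1h2bm was at 125, 277, 394 and 388 CPM against 106, 63.6 and 72.5 CPM, with a log2 fold change of 1.87 ± 0.36 (adjusted p = 0.0175 by edgeR). In these last 2 genes the groups did not overlap, and in Hist1h2bb wild-type replicate 1 fell just below Meioc-null replicate 1. Hist1h2bc, Hist1h2be, Hist1h2bf, Hist1h2bj, Hist1h2bk, Hist1h2bl, Hist1h2bp and Hist2h2bb were called as well, with log2 fold changes from 0.59 to 2.22. Hist2h2be went the other way, at 7.32 to 9.77 CPM in wild-type against 9.96 to 12.3 CPM in null libraries, but was not called (log2 fold change -0.42 ± 0.14). Hist1h2bg (0.47 ± 0.20) and Hist1h2bh (0.61 ± 0.36) were not called, and Hist1h2bn was listed at 0 in every library.

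The value of the testis H2B gene Hist1h2ba switched between libraries with those of Hist1h2bq and Hist1h2br, although 55.9% of its 31-base words were in no other gene. Hist1h2ba shared 156 words with either of these, 44.4% of the words of the shorter transcript compared. Its last 60 coding bases are the same as those of Hist1h2bq, Hist1h2br, Hist1h2bc and Hist1h2bj, and are given because a read within them fits all 5 genes.
Hist1h2ba and Hist1h2bq: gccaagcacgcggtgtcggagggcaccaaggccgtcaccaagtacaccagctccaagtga
Hist1h2ba was at 538, 1571 and 1480 CPM in wild-type replicates 1 to 3 but at 0 in wild-type replicate 4 and in all 3 Meioc-null libraries. Hist1h2bq and Hist1h2br were each at 612 CPM in wild-type replicate 4, at under 1 CPM in the other wild-type libraries, and at 70.6 to 140 CPM in null libraries. The sum of the 3 genes was 539, 1571, 1480 and 1223 CPM in wild-type against 279, 142 and 206 CPM in Meioc-null testes, without overlap and with a log2 difference of 2.47 ± 0.46 (SE, n = 4 and 3). Relative to Hist1h2aa, its divergent neighbour, this sum was 0.857 to 1.14 in wild-type and 0.732 to 0.812 in Meioc-null libraries. Hist1h2ba was called higher (adjusted p = 0.0325 by edgeR), but with 0 in wild-type replicate 4 and in the whole null group no fold change is given for it alone. When genes linked, directly or through another gene, by at least 40% of shared words were summed, a level set after seeing the data, it joined the other 14 Hist1 H2B genes, and this sum had a log2 fold change of 1.74 ± 0.33.

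**Figure D3:**
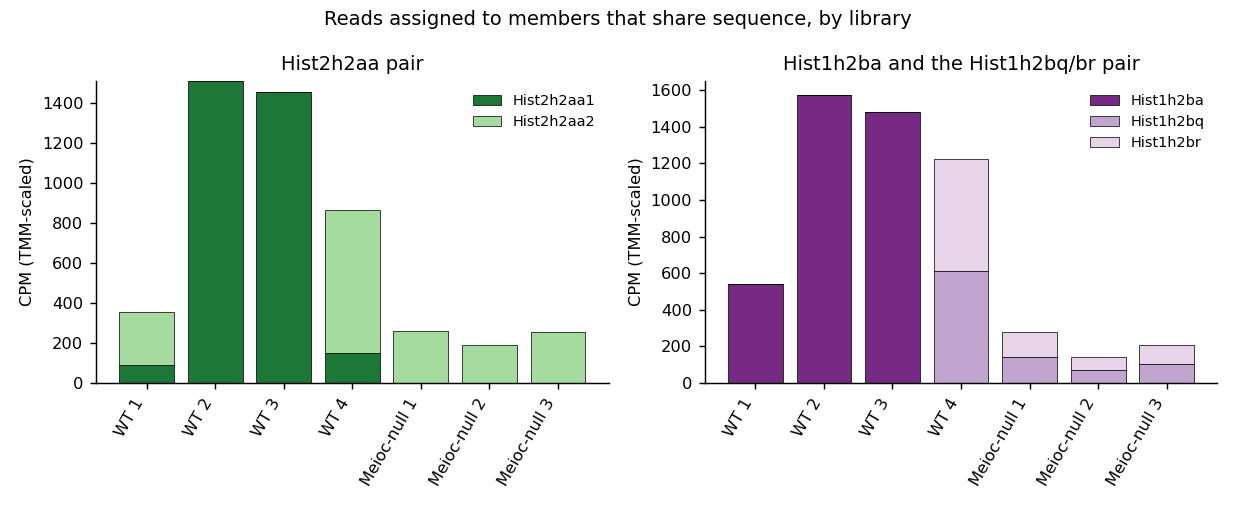
CPM (y axis, from 0, scaled by TMM) placed on Hist2h2aa1 and Hist2h2aa2 (left) and on Hist1h2ba, Hist1h2bq and Hist1h2br (right), stacked, in each library. The genes that receive the reads change between libraries of 1 group, while the stacked height is 354 CPM or more in every wild-type library and 279 CPM or less in every Meioc-null library.

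H3 was split by cluster. Of the 9 H3 genes of Hist1, none was higher, Hist1h3c and Hist1h3g were lower in wild-type testes, and 8 had a negative log2 fold change (median -0.33). Of the 3 H3 genes of Hist2, all had a positive one (1.20 to 3.54) and Hist2h3c2 was called. Hist2h3c2 was at 49.0, 351, 361 and 215 CPM in wild-type against 36.6, 14.4 and 11.5 CPM in null libraries, a log2 fold change of 3.54 ± 0.67 (adjusted p = 0.0174 by edgeR; 0.0622 and 0.0711 without Meioc-null replicate 2 or 3). Wild-type replicate 1 was again close to the null libraries.

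Hist1h3g was at 9.43, 9.82, 9.06 and 12.2 CPM in wild-type against 23.8, 18.3 and 25.0 CPM in null libraries, and its log2 fold change was -1.14 ± 0.15 (adjusted p = 0.00547 by edgeR). It was the only called member whose call held in all 7 fits that left out a library, and wild-type replicate 1 did not stand apart from the other wild-type libraries. Hist1h3c was at 22.3 to 26.5 CPM against 30.96 to 56.5 CPM, a log2 fold change of -0.82 ± 0.17 (adjusted p = 0.0218 by edgeR), and its call was lost in 4 of the 7 fits. Among the most expressed H3 genes by TPM, Hist1h3i, Hist1h3h and Hist1h3b had log2 fold changes of 0.42 ± 0.17, -0.37 ± 0.27 and -0.33 ± 0.17 and were not called. The remaining Hist1 H3 genes, Hist1h3a, Hist1h3d, Hist1h3e and Hist1h3f, lay between -0.34 and -0.11.

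Summed, the Hist1 H3 genes were at 354, 379, 367 and 316 CPM in wild-type against 534, 346 and 392 CPM in null libraries, a log2 fold change of -0.26 ± 0.14 that was not called (adjusted p = 0.232 by edgeR on the summed table). In TPM their sums did not overlap, at 1516 to 2141 in wild-type and 2272 to 3066 in null libraries, a log2 difference of -0.48 ± 0.17 (SE, n = 4 and 3). The Hist2 H3 genes were at 109, 486, 572 and 420 CPM against 117, 68.5 and 65.7 CPM, a log2 fold change of 2.24 ± 0.47 (adjusted p = 0.0203 by edgeR on the summed table), with wild-type replicate 1 below Meioc-null replicate 1. On summed TPM their log2 difference was 1.38 ± 0.49 (SE, n = 4 and 3). The ratio of Hist2 to Hist1 H3 RNA, which does not depend on library scaling, was 0.308, 1.28, 1.56 and 1.33 in wild-type and 0.219, 0.198 and 0.168 in Meioc-null libraries. The groups did not overlap in this ratio, and the difference between the 2 clusters was not tested.

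**Figure D4:**
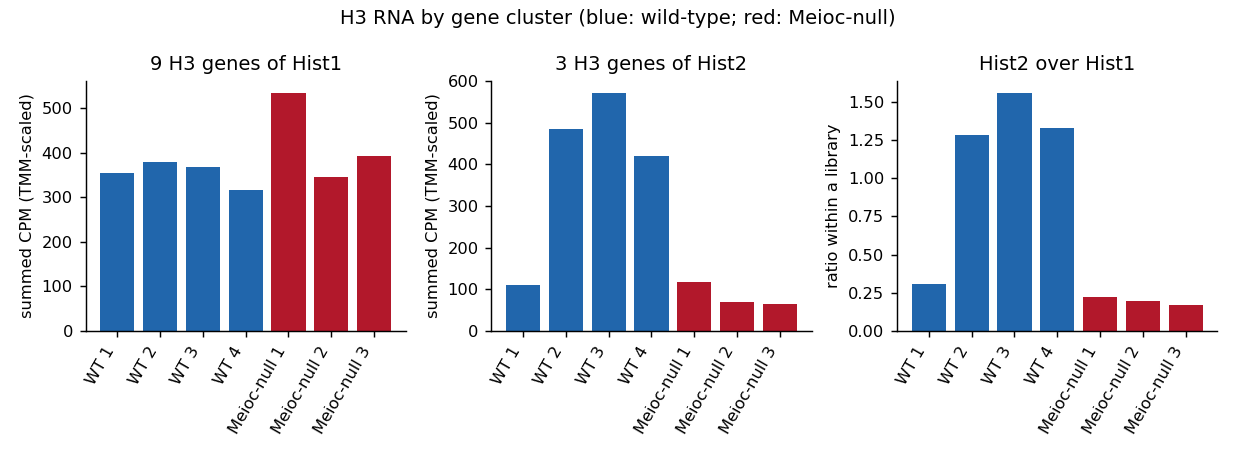
Summed CPM (y axis, from 0, scaled by TMM) of the 9 H3 genes of Hist1 (left) and the 3 H3 genes of Hist2 (middle), and their ratio (right), in each wild-type (blue) and Meioc-null (red) library. Hist1 H3 levels overlap between genotypes, and the ratio is 0.308 or more in wild-type and 0.219 or less in Meioc-null libraries.

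H4 had 9 of 13 tested members higher (median log2 fold change 1.57). Hist1h4c, among the 3 H4 genes with the highest TPM and with 77.8% of words of its own, was at 292, 666, 825 and 714 CPM in wild-type against 230, 129 and 146 CPM in null libraries, with a log2 fold change of 1.89 ± 0.33 (adjusted p = 0.0144 by edgeR). Hist1h4m was at 177, 336, 387 and 334 CPM against 137, 81.0 and 92.9 CPM, a log2 fold change of 1.57 ± 0.27 (adjusted p = 0.0129 by edgeR). Hist1h4i had the largest log2 fold change of the class, 2.25 ± 0.40, at 13.7 to 50.9 CPM against 6.00 to 10.1 CPM (adjusted p = 0.0146 by edgeR). In these 3 genes every wild-type library lay above every null library. Hist1h4a, Hist1h4f, Hist1h4h, Hist1h4j, Hist1h4k and Hist4h4 were also called, with log2 fold changes from 1.21 to 2.05. Hist1h4b, Hist1h4d and Hist2h4 had log2 fold changes of 0.73 to 0.95 and were not called. Hist1h4n was called lower (adjusted p = 0.048 by edgeR), but it had no counts in wild-type libraries and at most 0.282 CPM in null libraries, next to its near-identical neighbour Hist1h4m, and the sum of both was higher in wild-type (log2 fold change 1.57 ± 0.26, adjusted p = 0.0112 by edgeR on the summed table).

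Because 38 of the 61 genes had fewer than 50% of their 31-base words to themselves, members linked by at least 50% of shared words were summed into 19 groups and the fit was repeated. Links were chained, so 2 genes of a group may share fewer words directly. Of these, 12 were higher in wild-type testes by edgeR and 0 were lower, where 7.89% of all 13590 features were higher and 3.41% lower. DESeq2 called 15 higher and 0 lower, where 10.6% and 6.41% of all features were. At an unadjusted p under 0.05 edgeR had 15 higher and 1 lower, where 17.4% and 12.9% of all features were. With a limit of 90% of words, 30 of 56 groups were higher and 2 lower, where 7.8% and 3.35% of all features were. The 12 Hist1 H2A genes together averaged 2015 ± 522 CPM (SD, n = 4) against 1062 ± 287 CPM (SD, n = 3) in null testes, a log2 fold change of 0.92 ± 0.23 (adjusted p = 0.0319 by edgeR). The group of 14 Hist1 H2B genes, averaging 2598 ± 1232 (SD, n = 4) and 1045 ± 363 CPM (SD, n = 3), narrowly missed the threshold, with a log2 fold change of 1.31 ± 0.38 (adjusted p = 0.0504 by edgeR). This group took the Hist1h2bq and Hist1h2br reads of wild-type replicate 4, where it was at 4053.5 CPM, and of all null libraries. Hist1h2ba, which was read in the other wild-type libraries, stayed a group of its own. It was 1 of the 12 groups called higher, although at 0 in wild-type replicate 4 and in all null libraries. For 7 Hist1 H4 genes summed, the log2 fold change was 1.76 ± 0.33 (adjusted p = 0.0155 by edgeR). Leaving out wild-type replicate 2, 3 or 4 gave 2, 6 and 9 groups called higher, where 1.61%, 2.17% and 2.74% of all features were. Leaving out Meioc-null replicate 2 or 3 gave 2 and 0, where 2.68% and 1.22% of all features were. Without wild-type replicate 1 or Meioc-null replicate 1, 15 and 14 groups were higher, where 10.6% and 9.37% of all features were.

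Transcripts with the stem-loop summed to 4380, 8559, 10520 and 9400 CPM in wild-type against 4243, 2497 and 2998 CPM in null libraries, a log2 difference of 1.30 ± 0.36 (SE, n = 4 and 3). Those without them summed to 1858, 4434, 4506 and 3868 CPM against 1487, 792 and 1111 CPM, a log2 difference of 1.66 ± 0.40 (SE, n = 4 and 3). This sum holds Hist1h2aa, at 522 to 1427 CPM in wild-type and 174 to 381 CPM in null libraries. It also holds Hist1h2ba, Hist1h2bq and Hist1h2br, together at 539 to 1571 and 142 to 279 CPM. Both kinds were higher in every wild-type library than in any null library, and the difference between them was not tested. In 18 genes the annotated transcript ran on for more than 100 bases past the stem-loop, and 9 of these were called higher and 0 lower (median log2 fold change 1.11). Of the 21 tested genes whose transcript ended within 100 bases of it, 12 were higher and 2 lower (median 1.28). Of the 20 tested genes with no stem-loop in the annotated transcript, 9 were higher and 1 lower, with a smaller median of 0.61. Over all genes tested, 7.77% were higher and 3.33% lower. The division at 100 bases was chosen after seeing the data.

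Core histones took 6.38%, 12.0%, 13.5% and 12.9% of all TPM in wild-type replicates 1 to 4 and 5.73%, 3.6% and 4.30% in Meioc-null libraries, a mean of 11.2% ± 3.27 (SD, n = 4) against 4.54% ± 1.09 (SD, n = 3). The share of estimated counts was 0.633% to 1.44% against 0.339% to 0.595%. Hist1h2aa was at 11640 to 29520 TPM in wild-type and 4919 to 9155 TPM in null libraries. Hist1h2ba, Hist1h2bq and Hist1h2br together were at 12970 to 31840 and 4516 to 7566 TPM. Without these genes, the other members summed to 39140 to 75490 and 26570 to 40590 TPM, and the groups overlapped. Their log2 difference was 0.91 ± 0.28, and 1.25 ± 0.36 in CPM, where the groups did not overlap (SE, n = 4 and 3). TPM divides by effective length, and 16 members with an effective length under 100 bases held 39.0% to 66.8% of the members' TPM but 16.9% to 32.6% of their counts. Since TPM sums to a fixed total, the share also moves other genes. The median log2 TPM difference of the 13571 other genes tested was -0.23 as deposited and -0.13 when TPM was rescaled without the core histones.

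**Figure D5:**
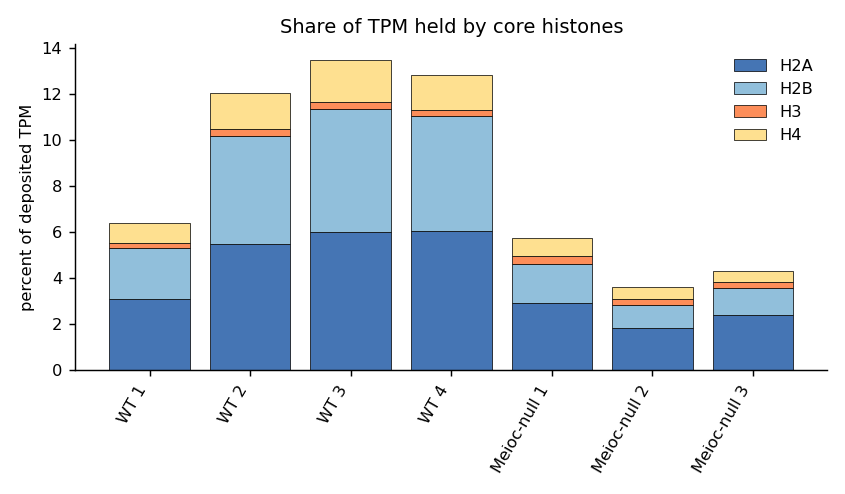
Percent of the deposited TPM (y axis, from 0) held by H2A, H2B, H3 and H4 genes, stacked, in each library. The stack reaches 12.0% or more in wild-type replicates 2 to 4, 6.38% in wild-type replicate 1 and at most 5.73% in Meioc-null libraries, and H3 is the thinnest layer.

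Other genes of DNA replication and histone supply were read beside the members. In a list of 32 S-phase genes, 18 were higher in wild-type testes and none lower (median log2 fold change 0.46), from Rrm2 (1.33 ± 0.22), a subunit of ribonucleotide reductase, to Cdt1 (-0.30 ± 0.23), a replication licensing factor, which was not called. Of 20 genes for histone gene transcription and 3-prime processing, 6 were higher and none lower. They were Ccne2 (1.31 ± 0.26) and Ccne1 (1.08 ± 0.22), cyclins of S-phase entry, Slbp (0.77 ± 0.17), which binds the stem-loop, Npat (0.66 ± 0.13), which activates histone gene transcription, Casp8ap2 (0.58 ± 0.10) and Cstf2 (0.39 ± 0.08). Of 15 histone chaperone genes, Asf1b (1.19 ± 0.21), Nasp (0.77 ± 0.15) and Hat1 (0.57 ± 0.12), a histone acetyltransferase, were higher. Of 9 replacement histone genes, H2afx (2.66 ± 0.50), which encodes H2A.X, and H3f3b (0.48 ± 0.13), which encodes H3.3, were higher and H2afy2 (-0.55 ± 0.11), which encodes a macroH2A, was lower.

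Several gene lists moved with the members between groups. Of 18 genes of meiotic prophase, a list that holds Meioc itself, 16 were higher (median log2 fold change 1.40) and summed to 3452 to 5275 CPM in wild-type, lowest in wild-type replicate 1, and to 1649 to 2052 CPM in null libraries. Markers of undifferentiated spermatogonia were lower in 2 of 8 tested and summed to 206 to 252 CPM against 311 to 483 CPM. Germ cell markers summed to 2401 to 2639 CPM against 1869 to 1939 CPM; of the 10, Dazl, Mael and Sycp3 (also a meiotic prophase gene) were higher and Nanos3 was lower. Of the somatic lists, Gata4 and Des were called lower in wild-type and Egfl7 higher, and no other gene of them was called. Markers of Sertoli cells, the somatic nurse cells of the tubules, overlapped, at 2340 to 2483 and 2250 to 2538 CPM, as did those of Leydig cells (280 to 566 and 335 to 645 CPM), peritubular myoid cells (689 to 784 and 659 to 779 CPM), endothelial cells (87.1 to 103 and 87.0 to 106 CPM) and macrophages (318 to 332 and 290 to 365 CPM). No gene of these lists was at 0 in every library. Differentiating spermatogonia markers summed to 590 to 801 CPM in wild-type against 443 to 541 CPM in null libraries, with 1 of 7, Kit, called higher. The largest differences in mean were those of Stra8 (236 against 107 CPM, not called) and Kit (223 against 152 CPM). Dnmt3b and Ccnd2 were lower in wild-type without a call. The study also used Stra8 to mark preleptotene spermatocytes. The part of any of these cell types in the histone result was not tested.

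Length and intron number were compared as properties the members share. Of 329 other genes tested with a longest transcript under 700 bases, 30 were higher (9.12%) and none lower, with a median log2 fold change of 0.21. Of 321 other genes with single-exon transcripts only, 19 were higher (5.92%) and 4 lower, with a median of 0.01. Both medians were below the 1.15 of the members. The trend of CPM with transcript length, read at 500 bases, was 0.07 to 0.11 on the log2 scale in wild-type and -0.29 to 0.02 in Meioc-null libraries, lowest in Meioc-null replicate 2. When it was removed, 27 members were higher and 5 lower by edgeR, where 9.18% and 4.07% of all genes were, and the part of transcript length in the result was not tested beyond this.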

How the data were processed

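Ribosomal RNA-depleted, stranded total RNA libraries were read on 1 end. Per the labels and the study's methods, the authors trimmed reads with cutadapt 1.8 and ran kallisto 0.44.0 with bias correction against GENCODE Basic vM15 (mm10); the deposited values were estimated counts and TPM per protein-coding transcript. kallisto divides reads that match several transcripts by estimation.

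From these, 43020 of 43139 transcripts were matched to GENCODE vM21 by identifier (the others held 0.247% to 0.282% of counts) and summed by gene. Rounded counts were tested with edgeR 4.0.16 (quasi-likelihood, TMM, R 4.3.3) over genes with at least 1 TPM in at least 3 of 7 libraries, called at an adjusted p under 0.05; DESeq2 1.42.0 and limma 3.58.1 on log2(TPM + 1) or log2(TPM + 0.1) were alternatives. Positive fold changes mean a higher level in wild-type. Totals are sums of TMM-scaled CPM, with an SE from the SDs of both groups on the log2 scale. Transcripts were compared by shared 31-base words. The fit was tested on simulated data.

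Members and lists were chosen with earlier results of these data known. Named were all members called, and the 3 with the highest mean TPM and the highest and lowest fold in each class. Also named were members at 3 counts or fewer in every library of 1 group only, Hist1h2aa and Hist1h2ba. Full values were limited to about 4 members a class. For the lists, the rule was to name the called, most and least changed genes. Not all of those list genes are named here, and the rest are given by counts. Hist2h2aa2, Hist1h2br, Hist3h2ba and Hist1h2bm and the uncalled members named beside them were singled out after their values were seen. Same-numbered libraries of the 2 groups did not deviate together (correlations -0.04, -0.10 and -0.21), so the numbers were not used as pairs.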

Additional observations from a re-analysis of the deposited data

Results flagged for a closer look

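In 52 levels a library far from the other 3 wild-type ones was sought, by the gap to the nearest relative to the group's range. Of these, 2 were flagged, no more than the about 1 in 20 that chance gives. Hist1h2aa was at 522 CPM in wild-type replicate 1, below 1384 to 1427 CPM in the other wild-type libraries. Hist1h2bq was at 611.5 CPM in wild-type replicate 4, above at most 0.145 CPM in the others, the library in which Hist1h2ba was at 0.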

How the results depend on the processing

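Sums over H2A, H2B, H4, all members and each cluster stayed higher in wild-type under no scaling, RLE size factors, summed TPM, counts per annotated length and every left-out library, with log2 differences of 0.95 to 2.36. The H3 sum became -0.077 in TPM. The histone share of TPM differed by 6.65 percentage points, by 2.83 with annotated lengths and by 0.703 as a share of counts, and by 5.88 to 8.25 with 1 library left out. Members called higher numbered 0 to 37 and lower 1 to 4 with 1 library left out. In the fit with 37 higher, 10.6% of all genes were higher. In the fit with 0 higher, 131 of all 13630 genes were called in either direction. With 1 library left out, 0.132% to 6.14% of all genes were lower. Of the 59 members, those called lower numbered 8 by limma on log2(TPM + 1), 8 on log2(TPM + 0.1) and 5 with the length trend removed. Of all genes, 15.3%, 15.1% and 4.07% were lower in the same fits. Sequence groups called higher numbered 0 to 15 with 1 library left out, where 1.22% to 10.6% of all features were. At 90% of shared words, 30 were higher and 2 lower of 56 groups. The replicate numbers did not pair the libraries; with the replicate block, which leaves fewer degrees of freedom, 2 members were called higher (and, in a fit added after seeing the data, 1 sequence group) and 4 members lower, and calls among all genes fell to 109. The log2 fold change of Hist1h2bq was 0.56, and -7.94 and -9.76 by limma on log2(TPM + 1) and log2(TPM + 0.1), -10.34 with the replicate block and -10.37 to 0.97 with 1 library left out. For the 40 named members, 457 alternative values kept direction and side of the threshold, 168 lost the call, 10 gained one and 4, all of Hist1h2bq, changed sign. Over all 59 tested members, 7 changed sign under at least 1 alternative, and 0 of these were called: Hist1h2af, Hist1h2bq, Hist1h2br, Hist1h3a, Hist1h3f, Hist2h2aa2 and Hist2h2ac. The cause of these shifts was not tested. Depth was 12537852 to 20552702 counts a library, and the division of reads between genes that share sequence adds an error that counts do not show.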
